A study of Bos taurus with 27 samples.

Results

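Embryos of cattle (Bos taurus) at day 15 of pregnancy were compared by size within a single diet and a single size class. The embryos came from dams on a maternal omega-3 diet and were classed as short in the labels. The number that starts each title was read as the embryo's size. Its unit is not stated. Embryos with size numbers of 0.4 to 2.6 were called small, and those of 4.4 to 9.5 mid-sized. This gave 4 small embryos (numbers 05, 12, 13 and 14) and 6 mid-sized embryos (numbers 02, 03, 08, 11, 15 and 17), so 10 of the 27 embryos in the series. Long omega-3 embryos (n = 6, size numbers 10.5 to 20.3) and short embryos from dams on an omega-6 diet (n = 11) were used beside them. The omega-6 embryos were split at the same size, into 6 small (1.4 to 2.5) and 5 mid-sized (3.7 to 7.7). Each library was made from 1 whole embryo. Dams, strain and collection batch are not named, so embryos of the same dam cannot be recognised and p-values reflect only how much these embryos vary.

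At this stage the cattle embryo lies free in the uterus. Its trophectoderm, the outer layer that will form the fetal part of the placenta, grows and lengthens the embryo from a sphere through an ovoid and tubular form into a filament. The trophectoderm of ruminants also secretes interferon tau, the signal through which the uterus recognises pregnancy. Size at a fixed day is commonly read as how far elongation has gone. In RNA from whole embryos, more cells of a type and more RNA per cell cannot be told apart. The deposited tables give Ensembl identifiers without gene names, and none of the 19994 (0 matches) was found in the RefSeq table at hand (assembly ARS-UCD2.0). Tissue markers could therefore not be checked and genes are described by identifier or by rank.

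Of the small embryos, 13 was lettered f, and 05, 12 and 14 were lettered m. The mid-sized embryos held 3 of each letter (f in 03, 08 and 17). The gene with the largest difference between m and f in the 17 other embryos had at least 1115 counts in each of the 6 m embryos and at most 4 in each of the 4 f embryos. No letter thus went against that gene. Total counts ran from 23745720 to 26583206 in small embryos and from 23925967 to 29868584 in mid-sized embryos. The difference in mean log2 size, small minus mid-sized, was -2.31, or -1.74 without embryo 14, whose size number of 0.4 is far from the next smallest of 1.3.

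A principal component analysis of log2 CPM (counts scaled to a common library size) separated the 10 embryos by size class on its first axis, which held 38.4% of the variance. Small embryos scored -63.7 (embryo 14), -18.6 (13), -32.4 (05) and -0.864 (12). Mid-sized embryos scored from 7.85 to 32.2. The classes did not overlap, but embryo 12, the largest of the small ones, lay nearer to mid-sized embryo 17 than to any other small embryo on this axis. Distances were also taken between pairs of embryos, as the root mean square difference in log2 CPM over the tested genes. Embryo 14 stood 0.806 to 0.955 from the mid-sized embryos and 0.581 to 0.752 from the other small ones. The other small embryos stood 0.473 to 0.782 from the mid-sized embryos and 0.546 to 0.635 from each other. Mid-sized embryos differed from each other by 0.406 to 0.638. Apart from embryo 14, distances between the classes therefore overlapped with those within each class.

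**Figure D1:**
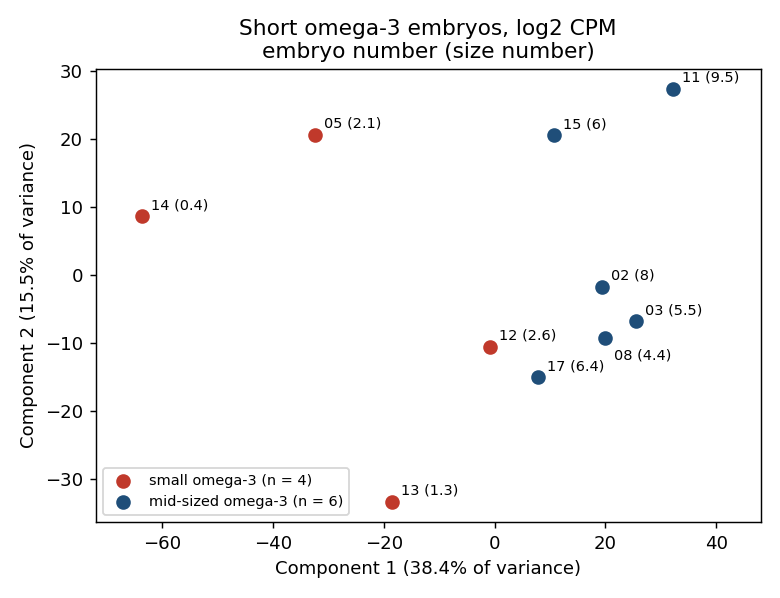
Scores of the 4 small and 6 mid-sized omega-3 embryos on the first and second principal components of log2 CPM, with embryo number and size number beside each point. Small embryos lie to the left, from -63.7 to -0.864 on the first component, and mid-sized embryos lie between 7.85 and 32.2.

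The embryos at both ends of the size range had the most genes of their own. A gene was counted as apart in an embryo when its log2 CPM lay at least 2-fold above or below all 9 others. Embryo 14, the smallest, had 89 genes apart on the high side and 106 on the low side, of 11671 tested. Embryo 11, the largest of the 10 (size number 9.5), had 66 and 28. The other 8 embryos had 1 to 7 high and 4 to 25 low. Embryo 13 had the most low ones among these, at 25.

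The 10 most counted genes of each embryo took a smaller share of its counts in small embryos. The share was 12.1% in embryo 14, 13.9% in 13, 14.5% in 05 and 15.6% in 12. In mid-sized embryos it ran from 15.4% to 18%, so embryo 12 overlapped with them. The means were 14% ± 1.46 in small and 16.4% ± 1.11 in mid-sized embryos (SD, n = 4 and 6), a difference of -2.33 percentage points (exact two-sided permutation p = 0.00952 over 210 splits, adjusted over 2 measures 0.019). Without embryo 14 the difference was -1.7 and did not pass (exact permutation p = 0.0833, adjusted 0.167). The number of genes with a count when every library is thinned to 23745720 reads was 14220 ± 300 in small embryos and 13976 ± 66.5 in mid-sized embryos (SD, n = 4 and 6). That difference of 244 did not pass (exact permutation p = 0.081, adjusted 0.081), and it was 137 without embryo 14 (exact permutation p = 0.238).

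Small embryos differed from mid-sized embryos in 667 of 11671 genes tested (5.72%), 306 higher (2.62%) and 361 lower (3.09%), by edgeR's quasi-likelihood test with the sex letter in the model at an adjusted p below 0.05. Among them, 93 were at least 2-fold higher and 151 at least 2-fold lower in small embryos. Without embryo 14 the counts were 195 of 11750 (1.66%), 84 higher (0.715%) and 111 lower (0.945%), with 39 and 60 past 2-fold. Called changes had a median size of 0.76 log2 units with embryo 14 and 1.01 without it, since fewer small changes were called. Changes are relative to the other genes, because the scaling takes rises and falls to balance. With scaling by library size alone, 490 genes were higher and 329 lower in the 10 embryos, and 136 were higher and 118 lower without embryo 14, so the balance of directions depends on the scaling.

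Leaving out embryo 14 cost calls more than it changed median fold sizes. Both fits called 184 genes (82 higher and 102 lower), with a median size of 1.16 log2 units in the 10 embryos and 1.02 without embryo 14. A further 483 genes were called only with it. All 483 had the same sign without it and an unadjusted p below 0.05. Their median size was 0.62 with embryo 14 and 0.56 without it. Only 11 genes were called just in the 9 embryos. These fits share 9 embryos and are no independent checks of each other.

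**Figure D2:**
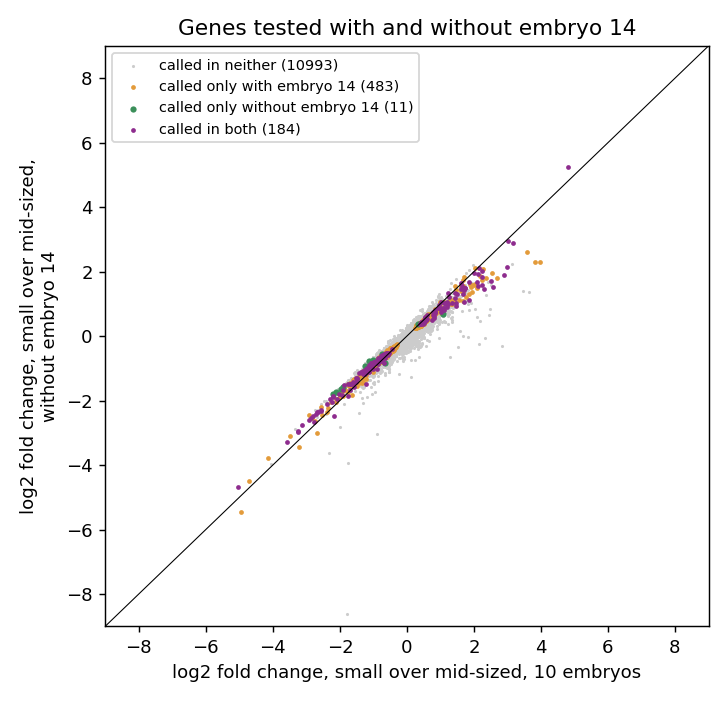
Log2 fold change of small over mid-sized omega-3 embryos for the 11671 genes tested, with all 10 embryos (horizontal) and without embryo 14 (vertical); the line marks equal values. The 184 genes called in both fits (purple) and the 483 called only with embryo 14 (orange) lie near the line, while some uncalled genes (grey) lie far below it.

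The number of calls rested on single embryos of both classes. It was 215 without small embryo 05, 1981 without 12, 0 without 13 and 195 without 14. It was 49 without mid-sized embryo 02, 0 without 03, 0 without 08, 7 without 11, 352 without 15 and 641 without 17. Where no gene was called, the lowest adjusted p was 0.105 (without 13), 0.053 (without 03) and 0.0515 (without 08). There 2654 of 11782, 2686 of 11607 and 2714 of 11619 genes had an unadjusted p below 0.05. With all 10 embryos it was 3105 of 11671, and the lowest adjusted p by edgeR was 0.0244. The number with an unadjusted p below 0.05 thus changed less than the number of calls. Embryo 13 was the only f among small embryos. Of the 667 genes, 665 were tested in all 10 of these fits, and all 665 kept their sign and an unadjusted p below 0.05 in each. These fits reuse embryos of the fit that chose the genes. Their result was therefore largely set by the choice and is no independent check. DESeq2 called 1745 genes and limma-voom 1254 on the same 10 embryos, so the count is tied to the method.

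**Figure D3:**
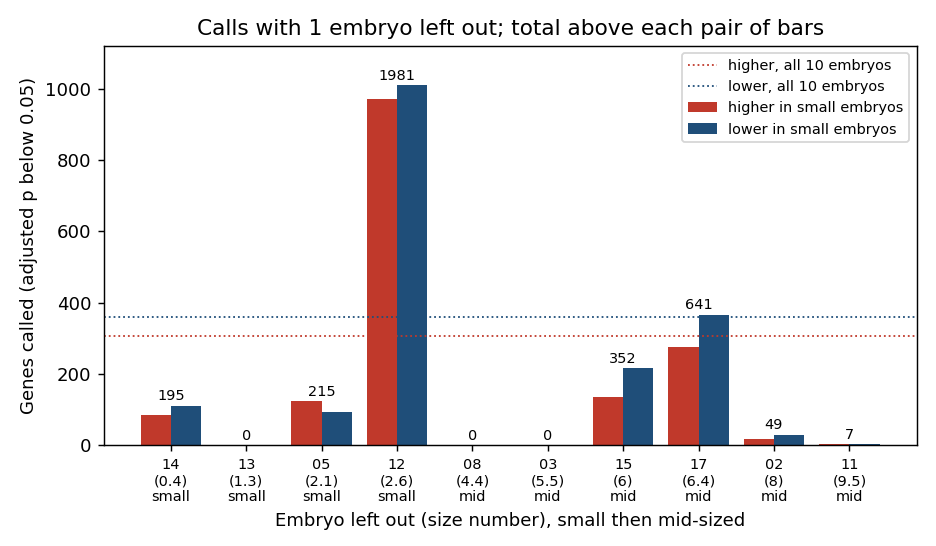
Genes called higher (red) and lower (blue) in small than in mid-sized omega-3 embryos when 1 embryo was left out, ordered by its size number, with the total above each pair; dotted lines mark the 306 and 361 of all 10 embryos. The total is 1981 without embryo 12 and 0 without 13, 08 or 03.

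Genes whose size classes did not overlap in CPM numbered 986 of 11671 (8.45%), 468 higher and 518 lower in small embryos, and they held 492 of the 667 called genes (73.8%). Without embryo 14 they numbered 1139 of 11750 (9.69%), and 177 of the 195 called genes (90.8%) were among them. In the other called genes at least 1 small embryo reached into the range of the mid-sized embryos. Calls and overlap come from the same values, so a high share among called genes follows from the choice. Classes also separate more easily with fewer small embryos, so the shares with and without embryo 14 cannot be compared.

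Called genes were spread over the range of abundance. Tested genes were ranked by mean CPM and cut into 3 classes. In the most counted class 155 genes were higher and 120 lower in small embryos (7.07% of 3891), in the middle class 75 and 127 (5.19% of 3890), and in the least counted class 76 and 114 (4.88% of 3890). Called changes had a median size of 0.5, 0.7 and 1.46 log2 units in these classes. Large changes came mostly from the least counted class, which held 59 of the 93 genes at least 2-fold higher and 82 of the 151 at least 2-fold lower. A gene with few counts passes only at a larger change, so the classes cannot be ranked by these medians. Without embryo 14 the shares called were 1.81%, 1.89% and 1.28%.

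Of the 10 most counted genes, ranked by mean CPM over the 10 embryos, 0 were higher and 1 was lower in small embryos, and without embryo 14 2 were lower (edgeR, adjusted p below 0.05). The gene of rank 3 measured 880 CPM in embryo 14, 3880 in 13, 7340 in 05 and 8530 in 12, in the order of their size numbers. Mid-sized embryos ran from 13600 to 33400 CPM, above every small embryo. Its log2 fold change was -2.20 ± 0.51 (SE, edgeR adjusted p = 0.0395), and -1.87 ± 0.22 without embryo 14 (adjusted p = 0.0187). The same gene had 29300 to 39800 CPM in long omega-3 embryos, with a median of 30300. Omega-6 classes overlapped for it, at 2870 to 20400 CPM (median 5080) in small and 6690 to 31300 (median 15600) in mid-sized embryos. The gene of rank 2 measured 1160 CPM in embryo 14 and 12500, 16500 and 22300 in 13, 05 and 12, against 23500 to 33100 in mid-sized embryos. It passed only without embryo 14, at -0.76 ± 0.13 (SE, adjusted p = 0.0359). With embryo 14 the change and its SE were larger, at -1.12 ± 0.56 (SE, adjusted p = 0.234). The most counted gene averaged 50900 ± 8010 CPM in small and 51500 ± 5820 in mid-sized embryos (SD, n = 4 and 6) and did not pass (log2 fold change -0.02 ± 0.12, SE, adjusted p = 0.922). Its near-equal means hide embryo 14, at 39400 CPM below the mid-sized range of 46300 to 62000. Embryos 05, 12 and 13 had 53300, 58000 and 52800 CPM. Without embryo 14 it did not pass either (0.08 ± 0.10, SE, edgeR adjusted p = 0.714).

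The genes with the smallest p values are described next, picked by rank of p. Their separation in omega-3 embryos largely follows from that choice. Overlap in omega-6 embryos is therefore by itself no sign of a difference between diets. Without embryo 14 the first was a gene with 2.16 CPM in embryo 13, 4.52 in 05 and 7.48 in 12, against 27.5 to 39.3 CPM (median 32.5) in mid-sized embryos. Its log2 fold change was -2.95 ± 0.30 (SE, edgeR adjusted p = 0.0187), a level 7.72-fold lower in small embryos. Embryo 14, which that fit did not use, had 0.911 CPM, so the 4 small embryos stood in the order of their size numbers and below every mid-sized embryo. Long omega-3 embryos had 27.8 to 51.9 CPM (median 42.3). In omega-6 embryos the gene ran from 4.08 to 26.9 CPM (median 7.48) in small and from 7.8 to 29.7 (median 9.58) in mid-sized embryos, which overlapped.

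With all 10 embryos the smallest p belonged to a gene with 3.68 CPM in embryo 14, 3.14 in 13, 2.2 in 05 and 2.6 in 12, against 0.468 to 1.05 CPM (median 0.814) in mid-sized embryos. Its log2 fold change was 2.11 ± 0.25 (SE, adjusted p = 0.0244), or 4.31-fold higher in small embryos. Every small embryo lay above every mid-sized one. Long omega-3 embryos had 0.171 to 1.06 CPM (median 0.294). Omega-6 classes overlapped, at 0.972 to 4.84 CPM (median 2.75) in small and 0.526 to 2.68 (median 0.746) in mid-sized embryos. The omega-6 log2 fold change of this gene was 1.13 ± 0.55 (SE). The second gene by p had 43.5, 42.7, 28.7 and 25.2 CPM in embryos 14, 13, 05 and 12, against 14.4 to 18.9 CPM (median 16.8) in mid-sized embryos, and the log2 fold change was 1.16 ± 0.15 (SE; by edgeR, adjusted p = 0.0244). Among small embryos its level was higher the smaller the embryo, and long embryos had 9.2 to 20.3 CPM (median 11.8). In omega-6 embryos this second gene overlapped between classes, at 16.7 to 35 CPM (median 27) in small and 14 to 29.3 (median 21.5) in mid-sized embryos. Its omega-6 log2 fold change was 0.38 ± 0.24 (SE).

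Genes named by identifier are those with the largest fold changes in each direction among the genes called both with and without embryo 14 and with a mean of at least 1 CPM (81 eligible higher and 100 lower in small embryos). ENSBTAG00000031184 was lower in small embryos. It measured 2.03 CPM in embryo 14, 4.13 in 13, 3.76 in 05 and 9.47 in 12, against 15.5 to 151 CPM (median 40.8) in mid-sized embryos. The classes did not overlap. The log2 fold change was -3.58 ± 0.64 (SE, edgeR adjusted p = 0.0281), or 12-fold lower, and -3.30 ± 0.65 without embryo 14 (adjusted p = 0.0452). Its highest mid-sized value came from embryo 11, and without that embryo the log2 fold change was -2.88 (adjusted p = 0.0653). Long omega-3 embryos had 49.6 to 136 CPM (median 54.8).

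ENSBTAG00000006707 showed the largest fall in small embryos. It measured 0 CPM in embryo 14 (0 counts), 0.183 in 13, 0.2 in 05 and 0.122 in 12, against 0.398 to 12.1 CPM (median 5.23) in mid-sized embryos. The highest small embryo reached 5 counts and the lowest mid-sized embryo, number 11, had 10. The log2 fold change was -5.03 ± 0.83 (SE, adjusted p = 0.0281), and -4.69 ± 0.86 without embryo 14 (adjusted p = 0.0372). Long omega-3 embryos ran from 0.577 to 15.3 CPM (median 3.29) and overlapped with the mid-sized embryos.

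ENSBTAG00000014514, a gene of low abundance, was higher in small embryos. It measured 3.54 CPM in embryo 14, 3.11 in 13, 1.88 in 05 and 1.22 in 12, in order of size, against 0.0398 to 0.648 CPM (median 0.242) in mid-sized embryos. The log2 fold change was 3.16 ± 0.57 (SE, edgeR adjusted p = 0.0281), or 8.91-fold, and 2.89 ± 0.57 without embryo 14 (adjusted p = 0.0455). Long omega-3 embryos had 0.0417 to 0.225 CPM (median 0.0803).

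ENSBTAG00000032642 had the largest rise but rested on a pair of small embryos. It measured 58.9 CPM in embryo 12 and 42.5 in 13, but 1.36 in 05 and 0.666 in 14, against 0.298 to 3.22 CPM (median 0.545) in mid-sized embryos. Embryos 05 and 14 lay within the range of the mid-sized embryos only through embryo 11, at 3.22 CPM. The next highest mid-sized embryo, 03, had 0.614 CPM, which is below both. The log2 fold change was 4.80 ± 1.16 (SE, edgeR adjusted p = 0.0423), and 5.24 ± 0.94 without embryo 14 (adjusted p = 0.037). It was 3.30 without embryo 12 (adjusted p = 0.13), 3.90 without 13 (adjusted p = 0.181) and 5.94 without mid-sized embryo 11 (edgeR adjusted p = 0.0764). DESeq2 gave no adjusted p for this gene. No long or omega-6 embryo exceeded 1.86 CPM.

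**Figure D4:**
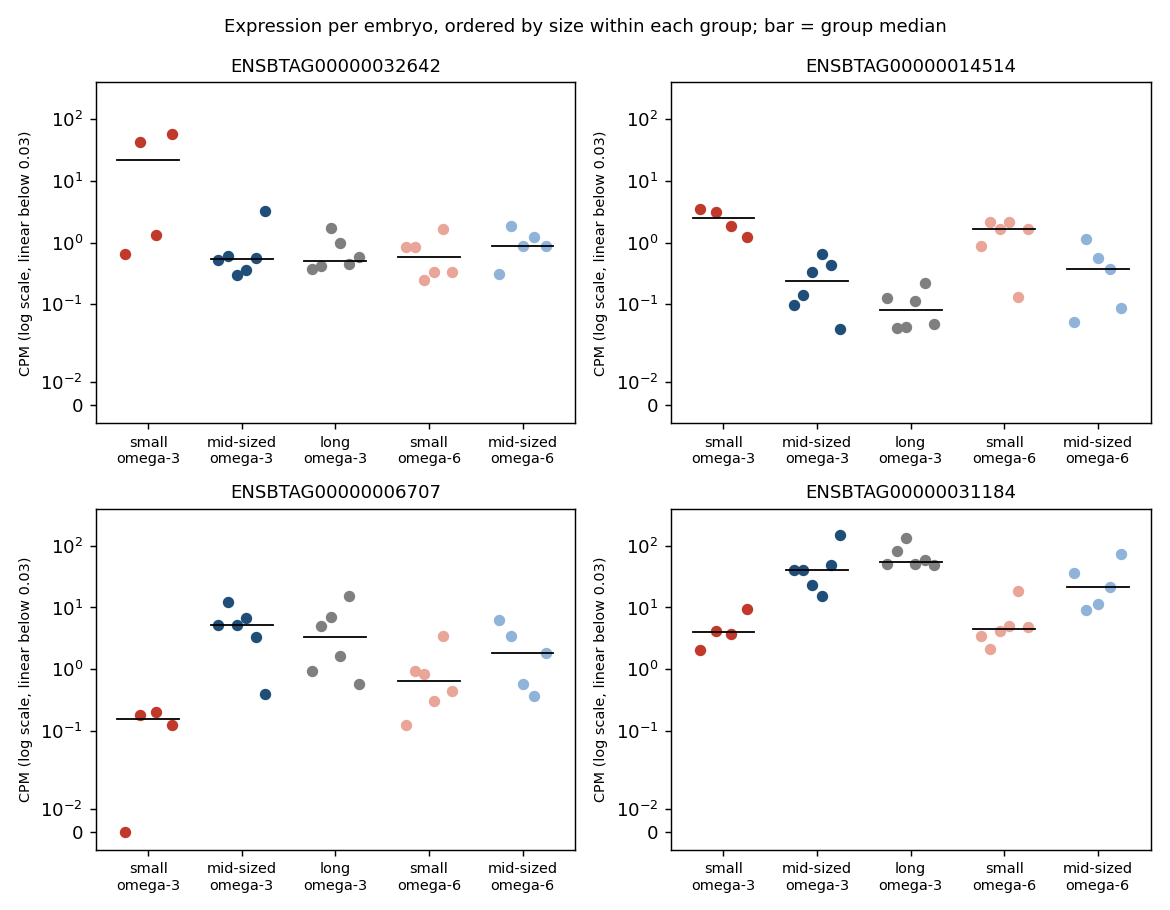
CPM (log axis, linear below 0.03) of the 4 named genes in each embryo, ordered by size within small, mid-sized and long omega-3 and small and mid-sized omega-6 embryos; bars are group medians. Small omega-3 embryos lie apart from mid-sized omega-3 embryos in 3 of the genes, while ENSBTAG00000032642 is high in 2 small embryos only (58.9 and 42.5 CPM).

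The same named genes were then read in the omega-6 embryos, which the omega-3 fits did not use. ENSBTAG00000031184 had 2.11 to 18.5 CPM (median 4.46) in small and 9.03 to 72.6 CPM (median 21.7) in mid-sized omega-6 embryos, and the log2 fold change of -2.32 ± 0.65 (SE) did not pass over all genes (edgeR adjusted p = 1). ENSBTAG00000014514 had 0.133 to 2.16 CPM (median 1.68) and 0.0526 to 1.13 CPM (median 0.373), at 1.69 ± 0.79 (SE, adjusted p = 1). ENSBTAG00000006707 had 0.126 to 3.49 CPM (median 0.636) and 0.373 to 6.26 CPM (median 1.85), at -0.94 ± 0.77 (SE, adjusted p = 1). For ENSBTAG00000032642 the medians were 0.586 CPM in small and 0.882 in mid-sized omega-6 embryos, at -0.41 ± 0.54 (SE, adjusted p = 1). None of the 4 passed the test of a difference between diets either (edgeR adjusted p = 1 for each), where ENSBTAG00000032642 differed by 5.30 ± 1.31 (SE) and ENSBTAG00000006707 by -4.35 ± 1.45. The genes were picked for large omega-3 fold changes, which by itself favours large differences here. The size gap was also unlike, with a difference in mean log2 size of -2.31 in omega-3 and -1.22 in omega-6 embryos.

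Across all genes, small and mid-sized omega-6 embryos differed in 0 of 11570 genes (0%) with edgeR. An unadjusted p below 0.05 was found for 348, a share below the 0.05 that chance alone would give. In the omega-3 fit it was found for 3105 of 11671. By DESeq2 20 omega-6 genes were called and by limma-voom 23. Without embryos 22 and 25, which stood apart in earlier results, 0 of 11525 (0%) were called by edgeR. There 792 had an unadjusted p below 0.05, a share above 0.05. The size contrast was narrower there, with a difference in mean log2 size of -1.22 (small minus mid-sized). The median SE of a log2 fold change was 0.24 in the omega-6 fit, 0.15 in the omega-6 fit without embryos 22 and 25, and 0.14 in the omega-3 fit. Whether the size difference itself differed between diets was tested in the 21 short embryos. By edgeR 0 of 12081 genes (0%) passed and 381 had an unadjusted p below 0.05. By DESeq2 and by limma-voom the number was also 0. Without embryo 14 it was 0 of 12130 (0%) by edgeR, and 306 had an unadjusted p below 0.05. Neither 381 of 12081 nor 306 of 12130 exceeded the share of 0.05 that chance alone would give. The median SE of these differences was 0.31 log2 units, so modest differences between diets were not detectable, and the absence of calls does not show that the diets act alike.

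The 195 genes that passed in omega-3 without embryo 14 were followed in the omega-6 embryos. Of the 84 genes higher in small omega-3 embryos, 80 were higher in small omega-6 embryos too (95.2%), against 44.7% of all 11570 genes tested. Of the 111 lower ones, 105 were lower (94.6%), against 55.3% of all genes. Their median log2 fold changes were 0.44 and -0.48 in omega-6 embryos. In omega-3 embryos, whose fit chose the genes, they were 0.93 and -1.05. The median over all genes in omega-6 was -0.02. In the omega-6 fit 14 of the 84 and 32 of the 111 had an unadjusted p below 0.05 in that direction, against 179 higher and 169 lower of all 11570. Without embryos 22 and 25, 80 of the 84 (95.2%) and 103 of the 111 (92.8%) had the direction of the omega-3 fit, against 51.8% and 48.2% of all 11525 genes, with medians of 0.38 and -0.35.

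Embryo 14 was not used to choose these 195 genes and could be set beside the other small embryos. It lay beyond every mid-sized embryo, on the side of the other small embryos, in 81 of the 84 higher genes and 108 of the 111 lower genes, which is 96.9% of the 195 genes against 51.9% of all 11750 tested. In 56 of the 84 and 84 of the 111 it also lay farther out than each of embryos 05, 12 and 13, which is 71.8% of the 195 genes against 34.8% of all 11750 tested. The mid-sized embryos serve in both readings, so these counts are a description.

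The level of both lists was also read in single embryos. Each value here is the median over the list of log2 CPM minus the mean of the mid-sized omega-3 embryos. The 84 higher genes stood at 1.39 in embryo 14, 1 in 13, 0.81 in 05 and 0.67 in 12. The 111 lower genes stood at -1.63, -1.17, -1.04 and -0.73 in the same embryos, so both lists were farther from 0 the smaller the embryo. For embryos 05, 12 and 13 the direction is fixed by the choice of genes. Mid-sized omega-3 embryos spanned -0.21 to 0.18 for the higher and -0.33 to 0.35 for the lower genes, with embryo 11 (size number 9.5) at -0.21 and 0.35, embryo 17 (6.4) at 0.18 and -0.33 and embryo 08 (4.4) at 0.06 and -0.05. Long omega-3 embryos had -0.43 to -0.08 and 0.20 to 0.39, and embryo 01, with the highest size number (20.3), had -0.20 and 0.26. Within these groups the levels did not follow the order of size. Over all genes tested these medians lay between -0.03 and 0.02 in every embryo.

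Omega-6 embryos, also not used in the choice, had 0.15 to 1.15 (median 0.78) for the higher genes when small and -0.10 to 0.65 (median 0.37) when mid-sized. For the lower genes they had -1.12 to -0.21 (median -0.92) when small and -0.60 to 0.11 (median -0.41) when mid-sized. The mid-sized omega-3 embryos, whose mean sets 0, were used in the choice. The distance of any embryo from 0 is therefore not independent of the choice. Embryo 21, a small omega-6 embryo with a size number of 2.5, had 0.15 and -0.21, within the range of the mid-sized omega-3 embryos. Embryo 30, of the same size number, had 0.80 and -0.93. Size number and list level thus did not match in each embryo.

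**Figure D5:**
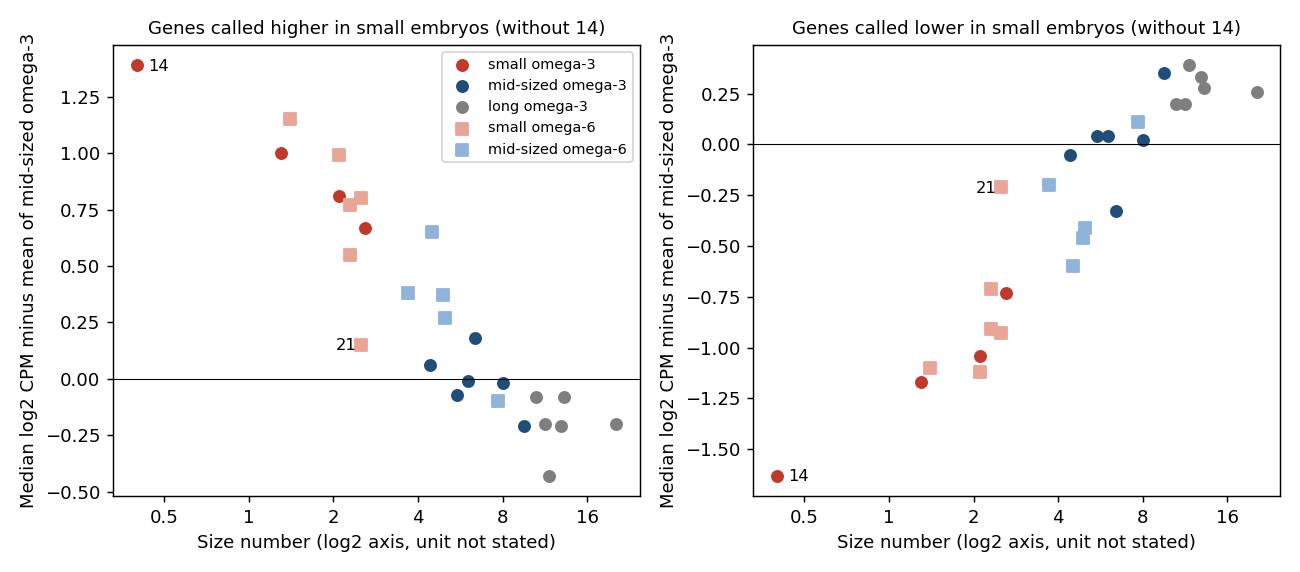
Median log2 CPM, relative to the mean of mid-sized omega-3 embryos, of the 84 genes called higher (left) and the 111 called lower (right) in small omega-3 embryos without embryo 14, against size number on a log2 axis; each point is an embryo. Embryo 14 lies farthest from 0 (1.39 and -1.63), and omega-6 embryo 21 lies among mid-sized embryos (0.15 and -0.21).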

How the data were processed

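Per the labels' protocols, libraries of polyadenylated RNA were made with a stranded kit and read as single 100 bp reads. The submitters' processing notes name STAR and featureCounts, with no versions. Genome build, annotation and strand setting: not given in the sources used here. The deposited values are the authors' raw read counts for 19994 Ensembl identifiers, 1 file per embryo. How reads shared by near-identical genes were counted is not stated, so members of multicopy families are uncertain. All 45 pairs of the 10 libraries differed beyond sampling noise (chi-square of at least 16.7 per degree of freedom).

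Genes were filtered with filterByExpr (minimum count 10, total 15, proportion 0.7), scaled by TMM and tested with edgeR 4.0.16 in R 4.3.3 (quasi-likelihood F-test, two-sided, Benjamini-Hochberg adjustment, threshold 0.05), with class and sex letter in the model. Fits used only the embryos compared. SE was derived by dividing the absolute log2 fold change by √F. CPM were scaled over all 27 embryos, and log2 CPM used a prior count of 2. Alternatives were DESeq2 1.42.0, limma 3.58.1 (voom with sample quality weights), other scalings, no filter, no sex letter, more embryos and embryos left out. Scaling by library size, the slope without embryo 14, and leaving out embryos other than from the 10-embryo fit were added after seeing the data. Scripts were tested on simulated data. With no gene names, the rule for named genes gave 2 genes in each direction by fold change, and genes described by rank of abundance or of p, the counts of genes apart in an embryo and the followed lists were chosen after their values were seen. The size classes and lists were chosen with earlier results of these data known. Planned marker and pathway lists were not used, since they need gene names. No pairing was used, because dams and collection batches are not named and each embryo number occurs once.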

Additional observations from a re-analysis of the deposited data

Results flagged for a closer look

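Of 34 sets of values compared, 3 were flagged for an embryo far from the rest of its class. Each was embryo 11, the largest mid-sized omega-3 embryo, far from the other 5. Chance alone flags about 1 in 20, and the sets share embryos, so these 3 flags alone do not set embryo 11 apart. For ENSBTAG00000032642 it had 3.22 CPM, for ENSBTAG00000031184 it had 151 CPM, and for the gene of rank 10 by mean CPM it had 10700 CPM. The gene of rank 10 measured 1130 to 4700 CPM in small embryos and did not pass between the classes (log2 fold change -1.06 ± 0.36, SE, edgeR adjusted p = 0.096).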

How the results depend on the processing

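Between small and mid-sized omega-3 embryos 667 genes were called. The number was 1745 with DESeq2, 1254 with limma-voom, 1339 when the long embryos shared the fit and 2191 with log2 size as a slope, and 0 to 1981 with 1 embryo left out. RLE scaling, no filter on low counts, no sex letter, all 27 embryos and scaling by library size gave 498 to 879. Without embryo 14, 195 genes were called, and the number was 974 with DESeq2, 644 with limma-voom, 40 without the sex letter, 479 with the long embryos, 5 with all 26 embryos and 321 with the slope. Leaving out 1 more embryo gave 1 (embryo 13) to 477 (embryo 12), with 2 for embryo 05, 22 for 08, 36 for 03, 49 for 11 and 97 for 02. The cause of these shifts was not tested. In omega-6 embryos DESeq2 called 20 and limma-voom 23, against 0 with edgeR, and leaving out 1 embryo gave 0 to 2 (2 without 21). The difference between diets gave 0 calls with DESeq2, with limma-voom, without embryos 22 and 25 and with each embryo left out. The difference in the share of the 10 most counted genes ran from -2.87 to -1.7 percentage points with 1 embryo left out, and that in genes detected from 137 to 343, which passed only without embryo 12 (exact permutation p = 0.0357). Over 17 or 18 alternatives, log2 fold changes stayed at 3.30 to 5.94 for ENSBTAG00000032642 (adjusted p 0.00707 to 0.181, not called in 8), 2.89 to 3.60 for ENSBTAG00000014514 (5.02e-05 to 0.107, 5), -5.49 to -4.66 for ENSBTAG00000006707 (2.67e-09 to 0.105, 5) and -3.97 to -2.88 for ENSBTAG00000031184 (1.36e-05 to 0.105, 6). No paired analysis was possible because dams and collection batches are not named.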
